A study of Arabidopsis thaliana with 15 samples.

Results

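N-hydroxypipecolate (NHP) is a small molecule that plants build from lysine and that sets up systemic acquired resistance, the state in which leaves far from an infection become harder to infect. In Arabidopsis thaliana, ALD1 removes the amino group of lysine, SARD4 reduces the product to pipecolate, and FMO1 hydroxylates pipecolate to NHP. UGT76B1 attaches glucose to NHP and so takes it out of action. NHP acts together with salicylic acid through the NPR1 family of receptors, and secreted pathogenesis-related (PR) proteins are the classic outputs of that state.

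Described here are 10 genes of this system, chosen by name out of 73194 features of an RNA-seq count table. They comprise the NHP enzymes ALD1 (AT2G13810), SARD4 (AT5G52810), FMO1 (AT1G19250) and UGT76B1 (AT3G11340), and the outputs PR1 (AT2G14610), PR2 (AT3G57260), PR5 (AT1G75040) and AED1 (AT5G10760). The last 2 are the modulators ACD6 (AT4G14400) and NIMIN1 (AT1G02450). All 10 genes have a row in the table, all 10 are listed in the RefSeq gene table of assembly TAIR10.1, and all 10 passed the filter on low counts. The genome build behind the deposited counts is not given in the sources used here, so no coordinates are printed.

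The tissue was untreated leaves of 3-week-old plants, so no pathogen was applied in either group. The tested line, prp4k3, carries an artificial microRNA that the series' design text writes as amiR-PRP4K3. Neither its promoter nor the number of independent lines is given in the sources used here. It was set against Col-0, the wild-type accession. Each genotype had 3 RNA-seq libraries. The labels tie no library to a plant or pool of its own, so the p-values rest on a spread between libraries that may be technical only. Another 3 samples, of the mutant se-2, were not analysed here.

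Totals ran from 16041754 to 16955629 counts in prp4k3 libraries and from 18305640 to 19344157 counts in Col-0 libraries. The share of plastid-encoded genes was 38.6% ± 0.857 in prp4k3 and 49.1% ± 1.56 in Col-0 (SD, n = 3 each). Levels below are CPM, counts divided by library size, after TMM scaling, which sets libraries to the same typical gene rather than the same total. The transcript of PRP4KA (AT3G25840) was at 6.42, 5.99 and 6.37 CPM in prp4k3, against 11.1, 9.70 and 9.33 CPM in Col-0, a log2 fold change of -0.68 ± 0.13 (SE; edgeR quasi-likelihood adjusted p = 0.00116). With total-count scaling that value turned to 0.16 (adjusted p = 0.28). PRP4KB (AT1G13350) was not called, at -0.41 ± 0.18 (adjusted p = 0.0646), and was called higher at 0.43 with total-count scaling (adjusted p = 0.0413). PRP4KC (AT3G53640) had 0 counts in all 6 libraries, below a floor of 3 counts, or 0.131 to 0.222 CPM per library. The gene SE (AT2G27100) was called higher at 0.34 ± 0.11 (adjusted p = 0.0233). That call was lost without prp4k3 replicate 1 or 3 or Col-0 replicate 1.

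Genes that mark leaves were abundant in both genotypes, and all 6 listed were called lower in prp4k3, where 31.9% of all tested features were; 5 of the 6 were also called lower with total-count scaling. Their summed level ran from 15910 to 17030 CPM in prp4k3 and from 46750 to 51280 CPM in Col-0. CA1, a carbonic anhydrase of photosynthetic cells, LHCB2.1 and LHCB1.3, 2 light-harvesting proteins, had log2 fold changes of -2.02 ± 0.09, -1.80 ± 0.12 and -1.78 ± 0.13. The root markers PLT1, EXP7 and COBL9 are named after their values were seen. PLT1 and EXP7 had 0 counts in every library, and COBL9 had 3 counts in prp4k3 and 4 in Col-0. PYK10 was higher at 0.70 ± 0.12 and SHR lower at -0.61 ± 0.14, while SCR was not called; their log2 fold changes were 1.54, 0.24 and 0.30 with total-count scaling. In whole-leaf RNA, fewer cells of a type and less RNA per cell cannot be told apart.

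All 10 genes were higher in prp4k3 than in Col-0. The quasi-likelihood test, adjusted over 18609 tested features at a threshold of 0.05, called 10 of 10 higher and 0 lower. Among all tested features 33.9% were called higher, and 65.8% were called in either direction. The median log2 fold change of the 10 genes was 5.31, beside 0.02 for all tested features. In each of the 10 genes the lowest prp4k3 library lay above the highest Col-0 library, which was also so in 36.5% of tested features. Together the 10 genes took 0.438% ± 0.0831 of all counts in prp4k3 and 0.0150% ± 0.00512 in Col-0 (SD, n = 3 each). The genes were picked with earlier results of these data known, so these counts and medians describe the genes and carry no test of their own.

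**Figure D1:**
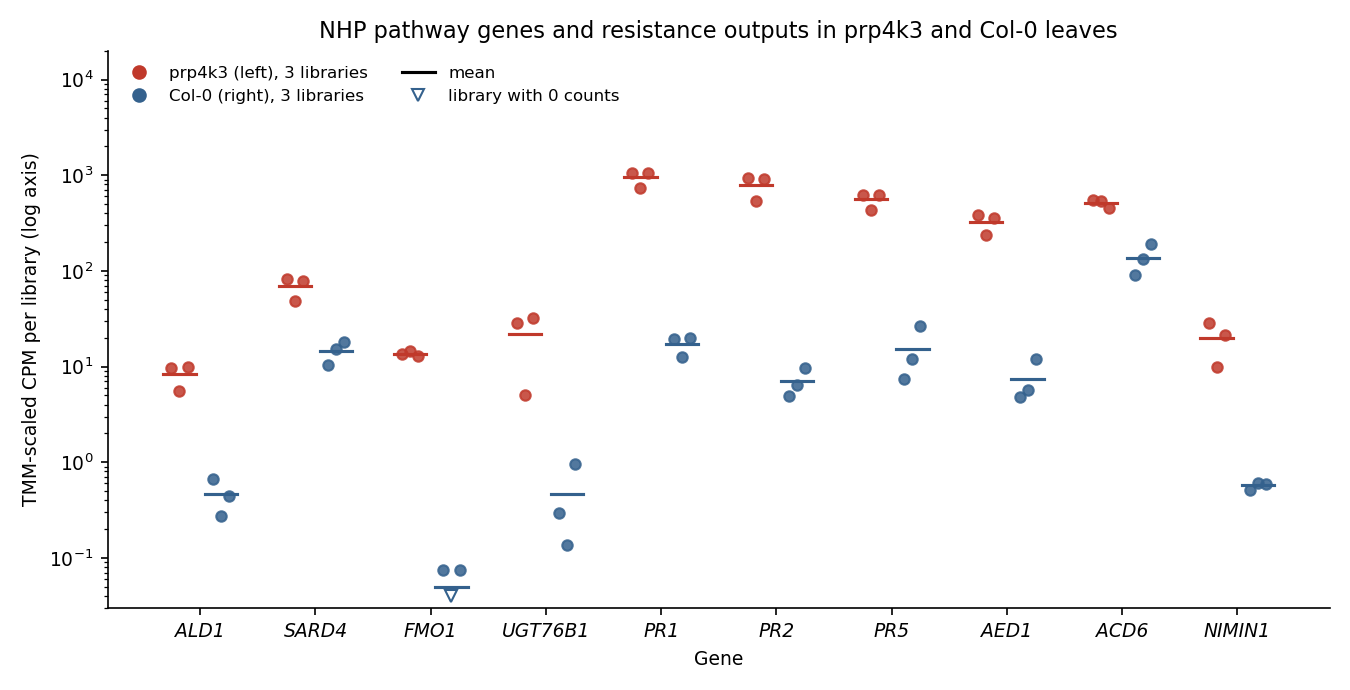
TMM-scaled CPM of each gene in every library, on a log axis, with prp4k3 libraries on the left and Col-0 libraries on the right of each pair; bars are means, and the open triangle marks the Col-0 library with 0 counts of FMO1. In every gene the 3 prp4k3 points lie above the 3 Col-0 points; heights of different genes are not comparable, since CPM is not divided by transcript length.

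The enzymes of NHP synthesis all rose. Ratios of prp4k3 to Col-0 counts, each taken over TMM-scaled library sizes, ran from 4.78 for SARD4 to 283 for FMO1. ALD1 was at 9.56, 5.48 and 9.98 CPM in the prp4k3 libraries, against 0.664, 0.271 and 0.444 CPM in the Col-0 libraries. In log2 terms the fold change was 4.18 ± 0.36 (SE; adjusted p = 8.58e-06). Only 19 ALD1 reads were counted in Col-0 over the 3 libraries, so its ratio of 18.4 has an exact 95% counting interval of 11.7 to 30.8.

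SARD4, the reductase that follows ALD1, was at 81.8, 48.1 and 78.3 CPM in prp4k3, against 10.3, 15.1 and 18.2 CPM in Col-0. This was a log2 fold change of 2.25 ± 0.25 (adjusted p = 3.63e-05). Unlike ALD1, SARD4 was well counted in Col-0, with 609 reads over 3 libraries and 4618 in prp4k3. Its gene model overlaps AT5G52800 in the RefSeq table, and that row held 109 counts in prp4k3 and 31 in Col-0. Whether the counting used strand or dropped shared reads is not given, so SARD4 counts are the least certain on this point; none of the other 9 genes overlaps a gene of that table.

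FMO1, which makes NHP itself, was at 13.4, 14.4 and 12.9 CPM in prp4k3, against 0.0738, 0 and 0.0741 CPM in Col-0. All 3 Col-0 values lie under the floor of 3 counts: 896 reads in prp4k3 stood against 2 in Col-0. The TMM-scaled ratio was 283 with an exact 95% counting interval of 78.0 to 2336. The fitted log2 fold change, 7.95 ± 0.32 (adjusted p = 3.4e-07), ranked 14 from the top among 18609 features and depends on how so few reads are smoothed. The difference between the FMO1 and SARD4 values was not tested.

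UGT76B1, the glucosyltransferase that conjugates NHP and also salicylic acid, was at 28.8, 5.02 and 31.8 CPM in prp4k3, against 0.295, 0.136 and 0.963 CPM in Col-0. The groups do not overlap, but both vary widely, with the highest prp4k3 library 6.34-fold above the lowest. The log2 fold change was 5.57 ± 0.84 (adjusted p = 0.000285), the largest standard error among the 10 genes. It came to 6.64 without Col-0 replicate 3 (adjusted p = 0.000924).

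The secreted PR proteins and AED1 are the outputs of the pathway, and their transcripts rose together. PR1, a small secreted protein used as the standard marker of salicylic acid responses, was at 1052, 729 and 1063 CPM in prp4k3, against 19.3, 12.6 and 19.9 CPM in Col-0. PR1 thus had a log2 fold change of 5.78 ± 0.23 (adjusted p = 3.44e-07). PR2, a secreted beta-1,3-glucanase that cuts fungal cell walls, was at 931, 542 and 908 CPM in prp4k3, against 4.94, 6.45 and 9.70 CPM in Col-0.

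PR2 rose by 6.82 ± 0.31 on the log2 scale (adjusted p = 4.22e-07). PR5, a thaumatin-like protein, was at 619, 432 and 621 CPM in prp4k3, against 7.45, 12.1 and 26.7 CPM in Col-0. Its prp4k3 libraries lay within 1.44-fold of each other, while Col-0 replicate 3 stood 3.59-fold above the lowest Col-0 library. The log2 fold change was 5.18 ± 0.42 (adjusted p = 5.83e-06), and 5.82 without Col-0 replicate 3 (adjusted p = 1.99e-06).

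AED1, a secreted aspartic protease whose induction in systemic resistance needs EDS1, was at 381, 236 and 356 CPM in prp4k3, against 4.796, 5.63 and 11.9 CPM in Col-0. AED1 had a log2 fold change of 5.45 ± 0.34 (adjusted p = 1.54e-06). AED1 and PR5 had the smallest distance over the 6 libraries of any pair among the 10 genes. After centring each gene on its mean, their log2 values differed by a root mean square of 0.189. At the other end, PR2 and ACD6 differed by 2.40. Such distances follow mostly the sizes of the genotype differences and are given as a description. Together PR1, PR2, PR5 and AED1 took 0.260% to 0.403% of counts in prp4k3 libraries and 0.00270% to 0.00503% in Col-0 libraries.

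ACD6 and NIMIN1 are known for their part in the salicylic acid response. ACD6, a membrane protein with ankyrin repeats that raises salicylic acid and cell death when overactive, was at 555, 538 and 457 CPM in prp4k3, against 91.0, 133 and 189 CPM in Col-0. Its log2 fold change of 1.91 ± 0.23 (adjusted p = 6.25e-05) was the smallest of the 10. It was well counted in both genotypes, with 34275 reads in prp4k3 and 5739 in Col-0.

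NIMIN1 encodes a protein that binds NPR1 and restrains PR1 expression. It was at 28.5, 9.80 and 21.5 CPM in prp4k3, against 0.517, 0.611 and 0.592 CPM in Col-0. The Col-0 libraries agree within 1.18-fold, while the prp4k3 libraries span 2.90-fold. For NIMIN1 the log2 fold change was 5.10 ± 0.47 (adjusted p = 1.27e-05).

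**Figure D2:**
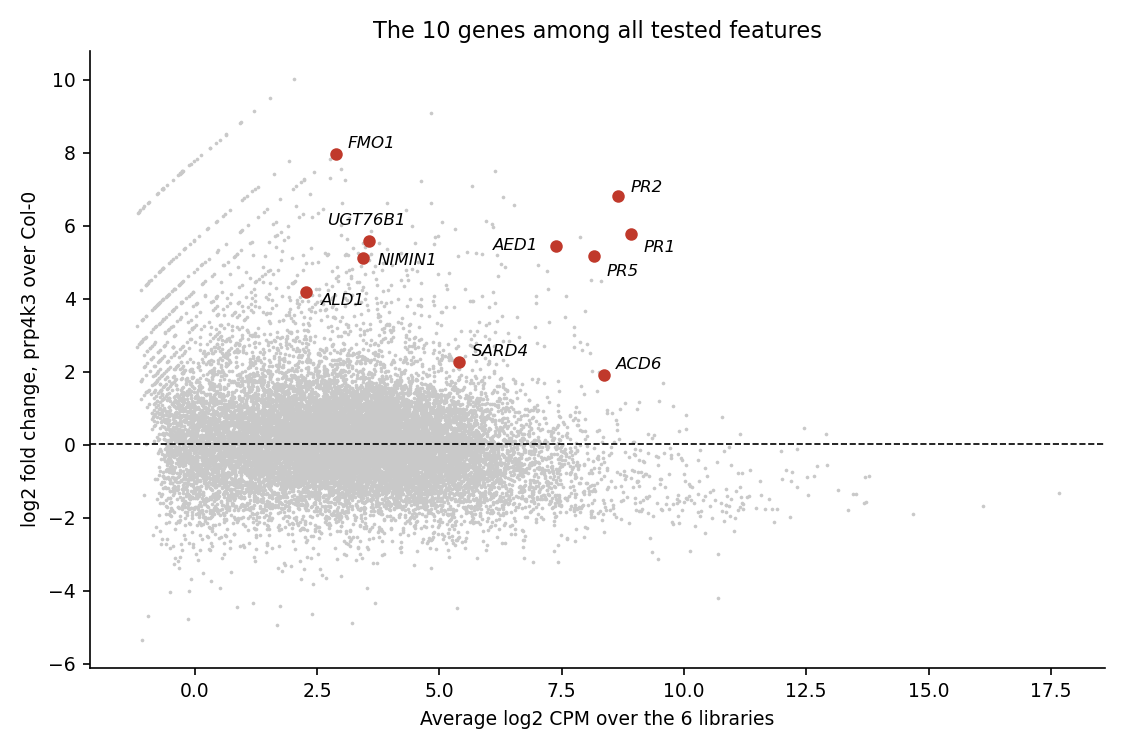
Log2 fold change (prp4k3 over Col-0) against average log2 CPM for the 18609 tested features in grey, with the 10 genes in red and the median of all features as a dashed line. ACD6 and SARD4 sit nearest the grey mass at 1.91 and 2.25, and FMO1 is highest at 7.95.

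Each of the 10 kept its direction and its call in all 13 alternative settings tried. Across them the adjusted p of a gene was at most 0.0029, reached by UGT76B1. With total-count scaling, which moved the median of all tested features to 0.86, the values were larger, from 2.76 for ACD6 to 8.72 for FMO1, and 67.1% of features were then called higher. The authors' deposited table gives log2 fold changes between 1.942 for ACD6 and 7.978 for FMO1, all 10 positive.

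**Figure D3:**
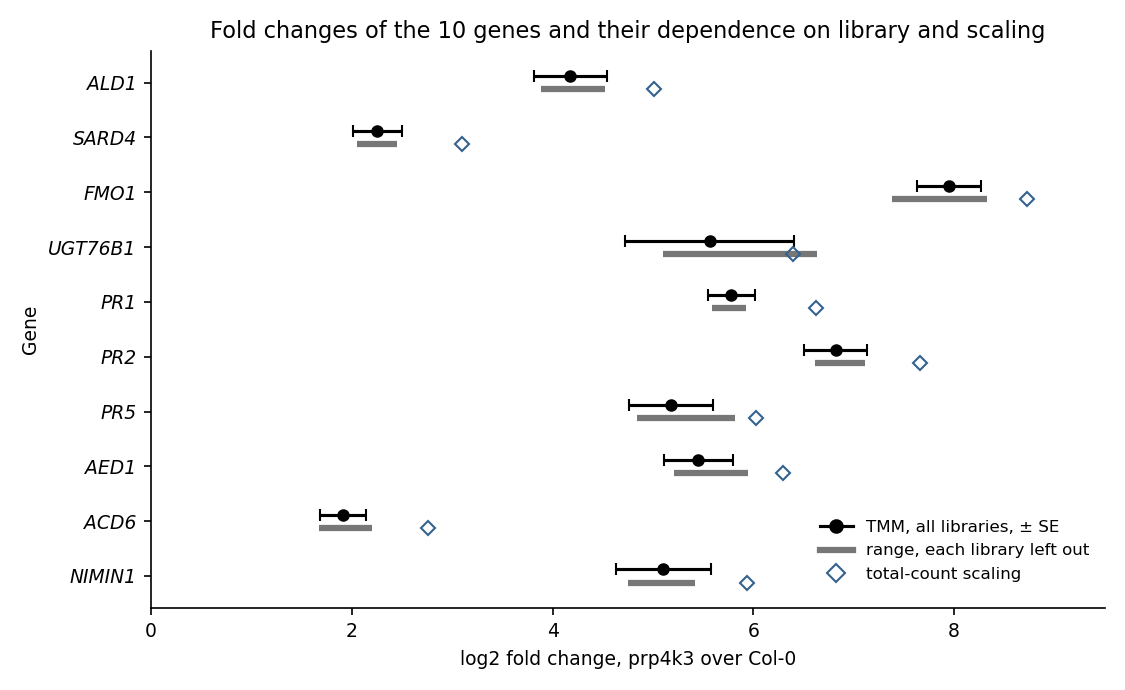
Log2 fold change of each gene with TMM scaling (black, ± SE, n = 3 libraries per genotype), the range when each library is left out in turn (grey bars), and the value with total-count scaling (open diamonds). No interval reaches 0; the widest grey bar, UGT76B1, runs from 5.10 to 6.64.

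Within prp4k3, 1 library was low in most of the 10 genes. Replicate 2 was the lowest prp4k3 library in 8 of 10 genes, the exceptions being FMO1 and ACD6; over 17180 features with a mean of at least 1 CPM it was the lowest in 38.9%. On a scale of log2(CPM + 0.5), replicate 2 lay below the mean of replicates 1 and 3 by 2.48 in UGT76B1, by 1.29 in NIMIN1, by 0.78 in ALD1 and by 0.73 in SARD4. The gaps of PR2, AED1, PR1 and PR5 were -0.76, -0.64, -0.54 and -0.52. The median gap over the 17180 features was 0.00 and the 5th percentile -0.51, so each of these 8 genes lay among the lowest 5% of features. FMO1 and ACD6 had gaps of 0.13 and 0.10.

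Replicate 2 was the highest prp4k3 library in the summed level of some other lists and the lowest in several. In prp4k3 replicates 1, 2 and 3, jasmonate and ethylene PR genes summed to 86.73, 94.42 and 79.87 CPM. Senescence markers summed to 145.1, 166.1 and 122.6 CPM, leaf markers to 15910, 17030 and 16360 CPM, and root markers to 71.85, 85.13 and 74.28 CPM. Replicate 2 was lowest in the sum of PRP4KA, PRP4KB, PRP4KC and SE, at 49.28, 46.93 and 50.79 CPM, and in some lists below. Genes of mobile signals and systemic resistance summed to 1362, 904 and 1160 CPM in prp4k3 replicates 1, 2 and 3, NPR receptors and partners to 233, 204 and 222 CPM, and close relatives of the 10 genes to 75.0, 61.1 and 78.6 CPM. The summed level of the upstream activators was nearly level, at 1186, 1165 and 1141 CPM, while that of flower and shoot apex markers was 13.7, 4.51 and 6.55 CPM. In Col-0 the flower and shoot apex sum was 5.83, 7.13 and 6.89 CPM, mostly from STM at 5.24, 6.11 and 6.15 CPM. Of 9 listed flower and shoot apex markers 2 passed the low-count filter and were tested, with 1 higher and 1 lower. Over all tested features 33.9% were called higher and 31.9% lower. Without that filter 4 of these markers were called higher and 1 lower, where 6895 of 28246 features with a count were called higher and 5967 lower. AP3, PI, AG, LFY, SEP3, CLV3 and WUS are named after their values were seen. AP3 had 50 counts in prp4k3 and 1 in Col-0, and PI 95 and 4, with no overlap between groups. In AG and LFY the groups overlapped. SEP3, a floral organ gene, had 64 counts in prp4k3 and 0 in Col-0. Against a floor of 3 counts over the Col-0 group it was at least 13.5-fold higher in prp4k3. The meristem gene CLV3 had 0 counts in prp4k3 and 3 in Col-0, no more than that floor. WUS, another meristem gene, had 5 counts in prp4k3 and 0 in Col-0, at least 1.05-fold higher against the same floor. The floral regulator AP1 had 78 counts in prp4k3 and 3 in Col-0, a TMM-scaled ratio of 16.4 (exact 95% counting interval 5.41 to 81.2). STM, a meristem gene, moved the other way (log2 fold change -0.96 ± 0.24, adjusted p = 0.00599; -0.11 with total-count scaling). The part of floral tissue in the levels of the 10 genes was not tested.

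In Col-0, replicate 3 was the highest library in 7 of the 9 genes other than FMO1, against 38.6% of features; FMO1 had 1 read in each of Col-0 replicates 1 and 3. Replicate 3 exceeded the mean of Col-0 replicates 1 and 2 by 1.44 in PR5, 1.12 in AED1, 1.04 in UGT76B1, 0.78 in ACD6 and 0.73 in PR2. The 95th percentile of all 17180 features was 0.54. In SARD4 and PR1 the gaps were 0.52 and 0.34, under that percentile. ALD1 and NIMIN1, in which replicate 3 was not the highest, had gaps of -0.01 and 0.04 on that log2 scale. With Col-0 replicate 3 left out the median log2 fold change of the 10 genes was 5.85, and with prp4k3 replicate 2 left out it was 5.52.

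**Figure D4:**
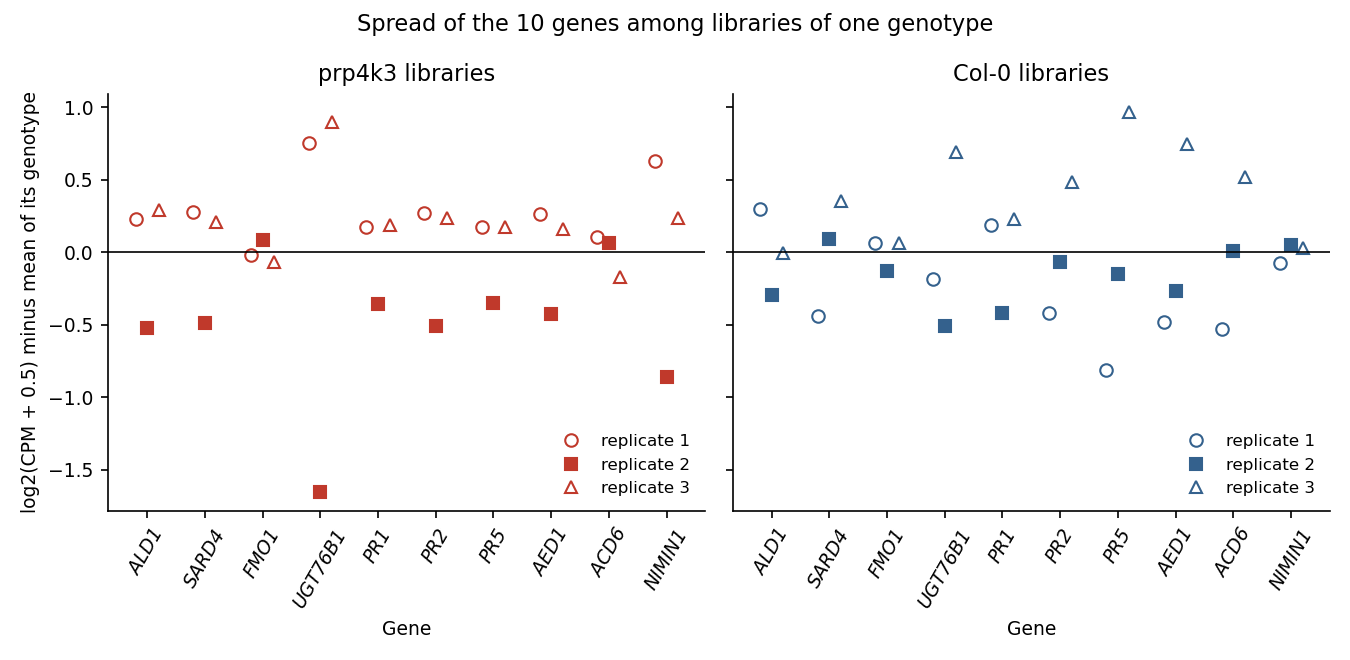
Deviation of each library from the mean of its own genotype, in log2(CPM + 0.5), for prp4k3 (left) and Col-0 (right), with circles, filled squares and triangles for replicates 1, 2 and 3. The filled squares of prp4k3 replicate 2 lie below 0 in 8 genes, most of all in UGT76B1, and the triangles of Col-0 replicate 3 lie farthest up in PR5.

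Genes upstream of NHP synthesis were mostly higher as well. Of 18 listed activators 12 were higher, 1 was lower and 5 were not called, with a median log2 fold change of 1.92, where 33.9% of all tested features were called higher and 31.9% lower. EDS1, the lipase-like hub of immune receptor signalling, was at 57.6, 68.0 and 53.5 CPM in prp4k3, against 4.35, 4.55 and 5.56 CPM in Col-0, with a log2 fold change of 3.63 ± 0.15 (adjusted p = 3.62e-07). SARD1, a transcription factor that binds the promoters of NHP and salicylic acid synthesis genes, averaged 101 ± 10.7 CPM in prp4k3 and 9.95 ± 2.69 CPM in Col-0 (SD, n = 3 each). Its log2 fold change was 3.35 ± 0.19, and that of WRKY54, a transcription factor of the same response, was 3.31 ± 0.24.

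Of the 5 activators that were not called, WRKY33 and MPK6 were the most abundant. WRKY33, which acts after MAP kinase activation, had a log2 fold change of 0.31 ± 0.18 (adjusted p = 0.152), and MPK6, a MAP kinase, of -0.07 ± 0.10 (adjusted p = 0.561). MPK3, another MAP kinase, named after its value was seen, was called higher at 0.91 ± 0.17 (adjusted p = 0.000975), with 83.5 ± 6.18 CPM in prp4k3 and 44.4 ± 11.4 CPM in Col-0 (SD, n = 3 each). MKK4, a MAP kinase kinase named after its value was seen, was called lower at -0.49 ± 0.17 (adjusted p = 0.0268). Its groups overlap, it lay at 0.35 with total-count scaling, and it lost its call when prp4k3 replicate 1 or 3 or Col-0 replicate 2 or 3 was left out. With total-count scaling 17 activators were higher and 0 lower, where 67.1% of all tested features were called higher.

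The receptors that read salicylic acid, and their partners, rose in 7 of 9 listed genes, with 1 lower and a median log2 fold change of 1.2, beside shares of 33.9% higher and 31.9% lower over all tested features. NIMIN2, a relative of NIMIN1 that also binds NPR1, was at 51.2, 34.8 and 42.8 CPM in prp4k3, against 2.21, 2.38 and 4.59 CPM in Col-0, a log2 fold change of 3.81 ± 0.26 (adjusted p = 2.21e-06). NPR3, a receptor that represses defence genes in the absence of salicylic acid, rose by 2.33 ± 0.18 on the log2 scale and TGA3, a bZIP factor that works with NPR proteins, by 1.83 ± 0.23. NIMIN3, the third NIMIN gene, named after its value was seen, was called lower at -0.69 ± 0.24 (adjusted p = 0.0267) with overlapping groups. It lay at 0.15 with total-count scaling, and no gene of the list was called lower without prp4k3 replicate 2 or 3 or Col-0 replicate 1 or 2.

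Genes of mobile signals and of salicylic acid turnover went in both directions: 10 were higher, 3 lower and 3 not called among 16 tested, with a median of 1.52. Over all tested features the shares were 33.9% higher and 31.9% lower. DLO1, a salicylic acid hydroxylase that lowers the active hormone, was at 193, 88.1 and 136 CPM in prp4k3, against 0.517, 0.475 and 1.33 CPM in Col-0. Its log2 fold change of 7.49 ± 0.41 (adjusted p = 8.36e-07) ranked 24 from the top among all tested features. LECRK-I.8, a lectin receptor kinase, and AZI3, of the AZI1 family of lipid-transfer-like proteins, rose by 4.46 ± 0.25 and 3.70 ± 0.20 on the log2 scale.

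The genes called lower in that list were named after their values were seen. DIR1, a lipid-transfer protein of long-distance signalling, was at 17.6, 11.7 and 11.0 CPM in prp4k3, against 24.6, 28.4 and 20.7 CPM in Col-0 (log2 fold change -0.87 ± 0.19, adjusted p = 0.0029). Its relative AT5G48490 had a log2 fold change of -2.52 ± 0.39 (adjusted p = 0.000321), and GLY1, a plastid glycerol-3-phosphate dehydrogenase, of -0.52 ± 0.18 (adjusted p = 0.0315). GLY1 lost its call with DESeq2 (adjusted p = 0.0648), with no low-count filter (adjusted p = 0.0506), and when prp4k3 replicate 1 or 2 or Col-0 replicate 1 or 3 was left out (adjusted p from 0.0732 to 0.0896). With total-count scaling AT5G48490 was still called lower at -1.68, while DIR1 lay at -0.03 and GLY1 at 0.32.

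Lysine, the starting point of NHP, was examined through 9 genes of its synthesis and breakdown, of which 3 were higher, 2 lower and 4 not called (median 0.16). These counts are near the shares over all tested features, 33.9% higher and 31.9% lower. LKR-SDH, the enzyme that breaks lysine down by the saccharopine route and so draws on the same amino acid as ALD1, was at 21.7, 39.5 and 21.2 CPM in prp4k3, against 4.21, 2.78 and 1.56 CPM in Col-0. It had a log2 fold change of 3.27 ± 0.34 (adjusted p = 2.94e-05), and prp4k3 replicate 2 was its highest library, whereas that replicate was the lowest in ALD1. DHDPS2, of the first committed step of lysine synthesis, rose by 0.60 ± 0.13 on the log2 scale.

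AT2G44040, listed as a dihydrodipicolinate reductase, was lower at -0.73 ± 0.15 (adjusted p = 0.00205), but lay at 0.12 with total-count scaling. AGD2, the diaminopimelate aminotransferase of lysine synthesis that gave ALD1 its name, was at 24.7, 27.8 and 31.2 CPM in prp4k3, against 22.1, 22.5 and 26.4 CPM in Col-0. The fold change was 0.24 ± 0.13 on the log2 scale (adjusted p = 0.121), as compared with 4.18 for ALD1. AT5G11880, listed as a diaminopimelate decarboxylase, was at -0.02 ± 0.14 (adjusted p = 0.921). With total-count scaling 8 of these 9 genes were higher and 0 lower, where 67.1% of all tested features were called higher.

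**Figure D5:**
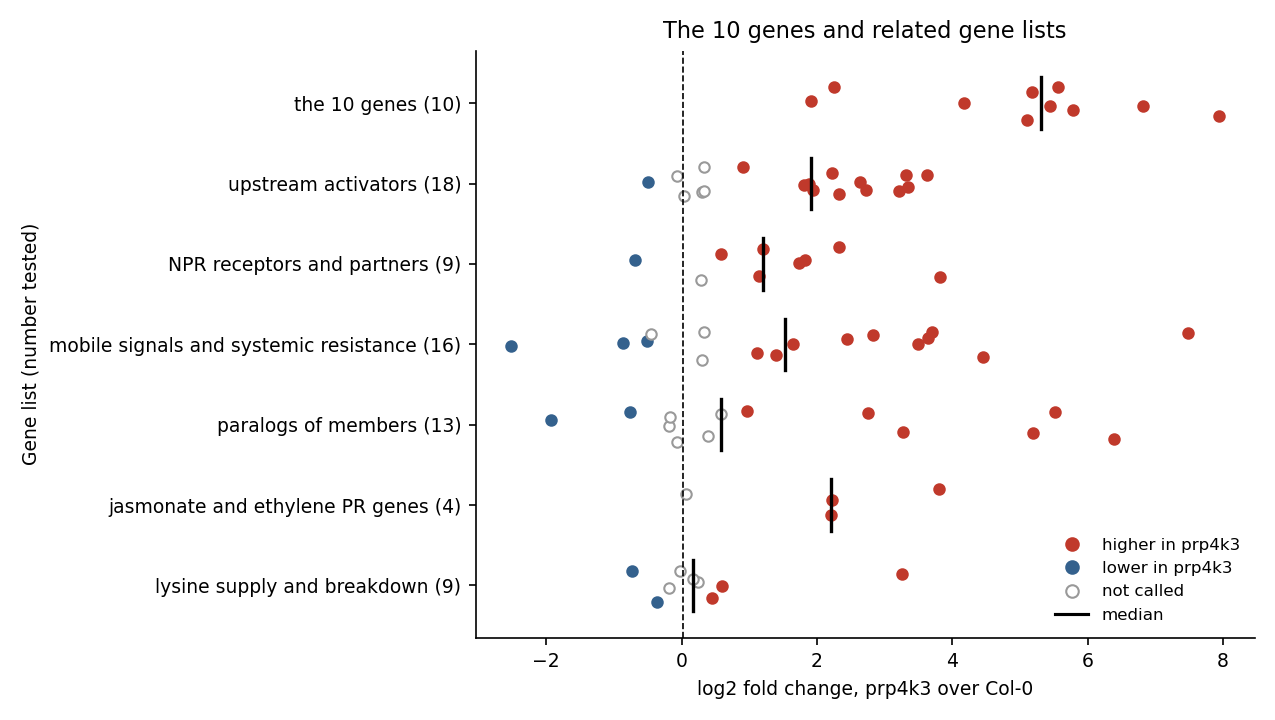
Log2 fold change (prp4k3 over Col-0) of each tested gene in 7 lists, in red where called higher, blue where called lower and open grey where not called; black bars are list medians and the dashed line is the median of all tested features. The 10 genes have a median of 5.31, the upstream activators 1.92 and the lysine genes 0.16.

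Close relatives of the 10 genes did not move as a block. Of 13 tested, 6 were higher, 2 lower and 5 not called, with a median of 0.58, beside 33.9% of all tested features called higher and 31.9% called lower. PRB1, the basic PR1-like gene that is the next protein-coding gene to PR1 in the RefSeq table, was at 1.09, 2.93 and 1.28 CPM in prp4k3, against 1.11, 1.09 and 1.33 CPM in Col-0. PRB1 had a log2 fold change of 0.58 ± 0.40 (adjusted p = 0.224), and the more distant PR-1-LIKE gene was at 0.40 ± 0.36 (adjusted p = 0.353).

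The glucanase relatives of PR2 did rise. BG3 was at 22.1, 13.8 and 24.3 CPM in prp4k3, against 0.148, 0.407 and 0.741 CPM in Col-0, with a log2 fold change of 5.52 ± 0.37 (adjusted p = 2.14e-06). BG1, next to PR2, had 38 counts in prp4k3 and 0 in Col-0, which is at least 7.99-fold higher against a floor of 3 counts over the Col-0 group. Reads of these related glucanases could be shared in counting. With BG1 placed at that bound the median of the 13 relatives was still 0.58.

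ACD6 has an adjacent relative, AT4G14390, at 9.73, 5.06 and 9.53 CPM in prp4k3, against 0.0738, 0.0679 and 0.518 CPM in Col-0. Its log2 fold change, 5.19 ± 0.51 (adjusted p = 1.82e-05), stood beside 1.91 for ACD6; the difference between them was not tested. AT4G01895, listed as NIMIN1b, was higher at 3.27 ± 0.38, and PR5K, a receptor kinase with a PR5-like domain, at 0.96 ± 0.26. In contrast, ATLP-3, a thaumatin-like gene next to PR5, was called lower at -0.76 ± 0.29 (adjusted p = 0.0406), with overlapping groups. Its log2 fold change was 0.09 with total-count scaling, and it lost its call without prp4k3 replicate 2 or 3 or Col-0 replicate 3 (adjusted p = 0.091, 0.104 and 0.191). AT5G10770, an aspartic protease gene next to AED1, was at -0.19 ± 0.11 (adjusted p = 0.147).

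Glucosyltransferases related to UGT76B1 were split. UGT76E12 was higher at 2.76 ± 0.44, and UGT76C2, which conjugates cytokinins, was lower at -1.93 ± 0.36 (adjusted p = 0.00108) and at -1.09 with total-count scaling. UGT76C1 and UGT76E11 had log2 fold changes of -0.06 ± 0.16 and -0.18 ± 0.20 and were not called.

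Neighbours on the chromosome, examined after the values of the 10 genes were seen, were also mixed. Of the 20 protein-coding genes directly beside the 10, 15 were tested, and 7 were higher, 4 lower and 4 not called. Over all tested features 33.9% were higher and 31.9% lower. The tested neighbours included relatives described above: BG1 and AT4G14390 were higher, ATLP-3 was lower, and PRB1 and AT5G10770 were not called. AT5G52800, which overlaps SARD4, was also among the higher. Both neighbours described next were named after their values were seen. XTH10, a cell wall enzyme gene on the other side of PR1 from PRB1, was higher at 3.79 ± 0.30 (adjusted p = 5.24e-06). The gene AT1G19240 beside FMO1 was at 0.40 ± 0.19 (adjusted p = 0.0856), beside 7.95 for FMO1.

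PR genes of the jasmonate and ethylene branch were higher in 3 of 4 listed, with a median of 2.22, where 33.9% of all tested features were higher. OSM34, an osmotin of the PR5 family, was at 28.4, 28.2 and 21.9 CPM in prp4k3, against 2.29, 1.56 and 1.78 CPM in Col-0, a log2 fold change of 3.80 ± 0.18 (adjusted p = 5.25e-07). PR4 and PR3, a hevein-like protein and a basic chitinase, rose by 2.22 ± 0.12 and 2.21 ± 0.20 on the log2 scale. PDF1.2a, the plant defensin that marks that branch, named after its values were seen, lay between 0.349 and 1.19 CPM in prp4k3 and between 0.221 and 1.26 CPM in Col-0 (log2 fold change 0.07 ± 0.62, adjusted p = 0.925).

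Markers of leaf ageing, a state in which PR genes are also known to be expressed, differed between genotypes in the same direction as the 10 genes. All 5 listed were higher in prp4k3 (median 2.96), as were 33.9% of all tested features, with a summed level of 123 to 166 CPM in prp4k3 and 15.3 to 24.8 CPM in Col-0. SAG13 rose by 5.25 ± 0.23 on the log2 scale and NAC6, a senescence regulator, by 2.96 ± 0.22. SAG12, a protease that marks late senescence, was at 1.66, 3.996 and 0.733 CPM in prp4k3, against 0.0738, 0.611 and 0.0741 CPM in Col-0. Its highest prp4k3 library was replicate 2, where 8 of the 10 genes were lowest. The part of leaf ageing in the levels of the 10 genes was not tested.

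By root mean square difference of centred log2 values over the 6 libraries, among 6235 named features with at least 5 CPM in the higher genotype, the patterns most like FMO1 were those of GLP9 (0.150), MSRB8 (0.239) and WRKY50 (0.242). GLP9, a germin-like protein gene, averaged 13.5 CPM in prp4k3 and 0.0493 CPM in Col-0. The patterns most like PR1 were those of ABCG40 (0.283), CRK7 (0.313) and AIG1 (0.367), a transporter, a cysteine-rich receptor-like kinase and a GTP-binding protein gene. ABCG40 averaged 132 CPM in prp4k3 and 2.02 CPM in Col-0. These distances reflect mostly the difference between genotypes and are given as a description.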

How the data were processed

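Total RNA of leaves was extracted with Trizol and made into libraries with a stranded total RNA kit, per the labels' protocols. The authors deposited raw counts per feature, with TopHat2, SAMtools, HTSeq and edgeR named in the submitters' processing notes, without versions or roles. Rounded, scaled values (score) for each library stand beside them in the deposited table and were not used. Per the file headers the table further holds the authors' fold change as a ratio, its log2, and the p-value before and after adjustment. The test was run in edgeR 4.0.16 under R 4.3.3: filterByExpr, TMM factors, quasi-likelihood F-test of genotype, Benjamini-Hochberg adjustment over 18609 features, called under 0.05. Levels are CPM from TMM-scaled library sizes, and count ratios, their intervals and fold bounds use the same sizes. The sign ± is SE for log2 fold changes and SD for levels. The 10 genes and all lists were chosen with earlier results of these data known. Lists comprised 111 genes. Beyond the 10 genes, the text names per list the 3 called genes with the largest changes, the 2 most abundant genes of at least 5 CPM that were not called, and all tested relatives; others are marked as chosen afterwards. Alternatives were RLE factors, total-count scaling, removal of organelle and rRNA genes, DESeq2 1.42.0, other low-count filters, a replicate block and each library left out. Scripts were tested on simulated data with equal numbers of raised and lowered genes, which did not test the choice of scaling. Each library counted as 1 replicate. Every pair of libraries of a genotype differed by more than sampling noise (chi-square per degree of freedom 6.93 to 16.8), which does not show that they came from separate plants. Reads carry no described molecular identifiers, so intervals and floors cover counting error only. No promoter or protein sequences were used here.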

Additional observations from a re-analysis of the deposited data

How the results depend on the processing

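All 10 genes remained higher in the 13 alternatives. With total-count scaling their median log2 fold change was 6.16, all features gave 12490 higher and 1825 lower (against 6310 and 5943), and PRP4KA and PRP4KB turned to 0.16 and 0.43 (-0.68 and -0.41 with TMM). That scaling gave 8 higher and 0 lower lysine genes, 0 lower activators, 0 lower NPR genes, 1 lower mobile-signal gene, 11 higher and 1 lower relatives, 0 lower root markers, 0 lower flower and shoot apex markers, and 2 higher and 0 lower among the targeted genes with SE. Without a low-count filter 2 root markers were lower and 4 flower and shoot apex markers higher. All features then gave 6895 higher and 5967 lower. With the filter of 1 CPM in 3 libraries 0 flower and shoot apex markers were called higher. Leaving out each library in turn gave between 2 and 4 higher flower and shoot apex markers, 0 to 1 higher and 1 to 2 lower targeted genes with SE, 0 to 1 lower NPR genes, 1 to 2 lower lysine genes, 1 to 2 lower relatives, 1 to 2 lower root markers, 2 to 3 lower mobile-signal genes and 0 to 1 lower activators. The cause of these shifts was not tested. Deviations of same-numbered libraries correlated at -0.0491, 0.0624 and -0.0529, and those of differently numbered libraries at -0.159 to 0.182. With 3 libraries per genotype these values cannot show whether equal numbers mark libraries handled together. With the replicate block 10 of the 10 genes were still higher and all features gave 6122 higher and 5753 lower. Depth limits the Col-0 levels of FMO1, ALD1, UGT76B1 and NIMIN1 most.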
